A study of Homo sapiens with 6 samples.

Results

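The genes described here take fatty acids into the cell, activate them and oxidise them. They are 40 genes, picked by symbol from 35793 in the deposited table, and all 40 were listed. RNA was measured by sequencing in cardiomyocytes grown from WTC11, an established line of human induced pluripotent stem cells. One group was unedited WTC11 (wild type). The other was a line made from WTC11 by CRISPR/Cas9 editing, homozygous for a knockout of the serine/threonine kinase gene STK25. Both groups were kept in RPMI 1640 with B27 supplement, given no treatment and taken on day 15, with 3 biological replicates each. Since 1 knockout line was used, the edit and other differences between the lines cannot be told apart. The sources used here do not say whether the replicates came from separate differentiations, so p-values measure only the spread between these samples.

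Long-chain fatty acids reach a heart cell bound to albumin or within lipoproteins. They cross the membrane with the help of transporters, travel in the cytosol on binding proteins and are coupled to coenzyme A. The carnitine shuttle then carries the acyl group into mitochondria, where dehydrogenases, hydratases and thiolases remove acetyl-CoA units round by round and pass electrons to the respiratory chain. The adult heart draws most of its energy from this route, whereas fetal and stem cell derived cardiomyocytes rely more on glucose and lactate. The coactivators PPARGC1A and PPARGC1B, with the PPAR and ERR nuclear receptors, are known to drive its genes in heart muscle.

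Libraries held from 22443904 to 53224112 reads assigned to genes. The unit throughout is the normalized count, a read count divided by 1 factor per library. STK25 itself checks the labels. Wild-type replicates 1, 2 and 3 had 8874, 6774 and 8710 normalized counts, and knockout replicates 1, 2 and 3 had 3906, 3434 and 3820, without overlap. The log2 fold change (knockout minus wild type, as in all that follow) was -1.12 (SE 0.19, limma adjusted p = 0.00903), and an exact two-sided permutation test gave p = 0.1, the smallest that 3 against 3 allows. Without wild-type replicate 1 the limma adjusted p was 0.0609. All 17 cardiomyocyte markers were high enough to test. Of them 10 had a log2 fold change above 0, with a median of 0.54 over the list; 0 passed the test as higher and 4 as lower (NKX2-5, PLN, MYL2 and NPPA), or 23.5% beside 12.8% of all genes tested. The summed level of all 17 was higher in every knockout library than in any wild-type library. For any gene in bulk samples, a change in the number of cells of a type and a change in RNA per cell cannot be told apart. Wild-type replicate 2 and knockout replicate 1 stood apart from the other libraries of their genotypes, and counts are therefore also given without them.

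Of the 40 genes, 37 reached the minimum mean of 10 normalized counts for testing, and LPL, ACSL5 and ACSL6 did not. By limma, with Benjamini-Hochberg adjustment over all 15536 genes tested and a threshold of 0.05, 4 rose in the knockout (VLDLR, FABP3, CD36 and ACOX3) and 1 fell (HADH). These 5 are 13.5% of the 37, beside 12.8% of all genes tested, of which 5.97% rose and 6.79% fell, so the share was near the background. The log2 fold change was above 0 for 23 of the 37 and below 0 for 14, with a median of 0.18 beside 0.0052 over all genes tested. The libraries of the genotypes did not overlap for 12 of the 37 (9 higher and 3 lower in the knockout), or 32.4%, beside 33.4% of all genes. Without wild-type replicate 2 and knockout replicate 1, 15 of the 37 passed, beside 28.9% of all genes. They were 10 higher and 5 lower in the knockout, beside 14.9% and 14.0% of all genes. The 10 were ACAA1, ACAA2, ACOX3, ACSL3, CD36, ECI1, ETFDH, FABP3, HADHA and VLDLR. The 5 were ACADVL, ACSL1, ETFB, FABP5 and HADH. With DESeq2 in place of limma 8 passed, beside 20.7% of all genes, and with the replicate number as a block 3 passed, beside 5.14%. At an unadjusted limma p under 0.05 there were 10 of the 37, beside 27.5%. VLDLR and FABP3 passed under each of the 16 alternatives tried. The other 3 called genes did not, as given with each.

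**Figure D1:**
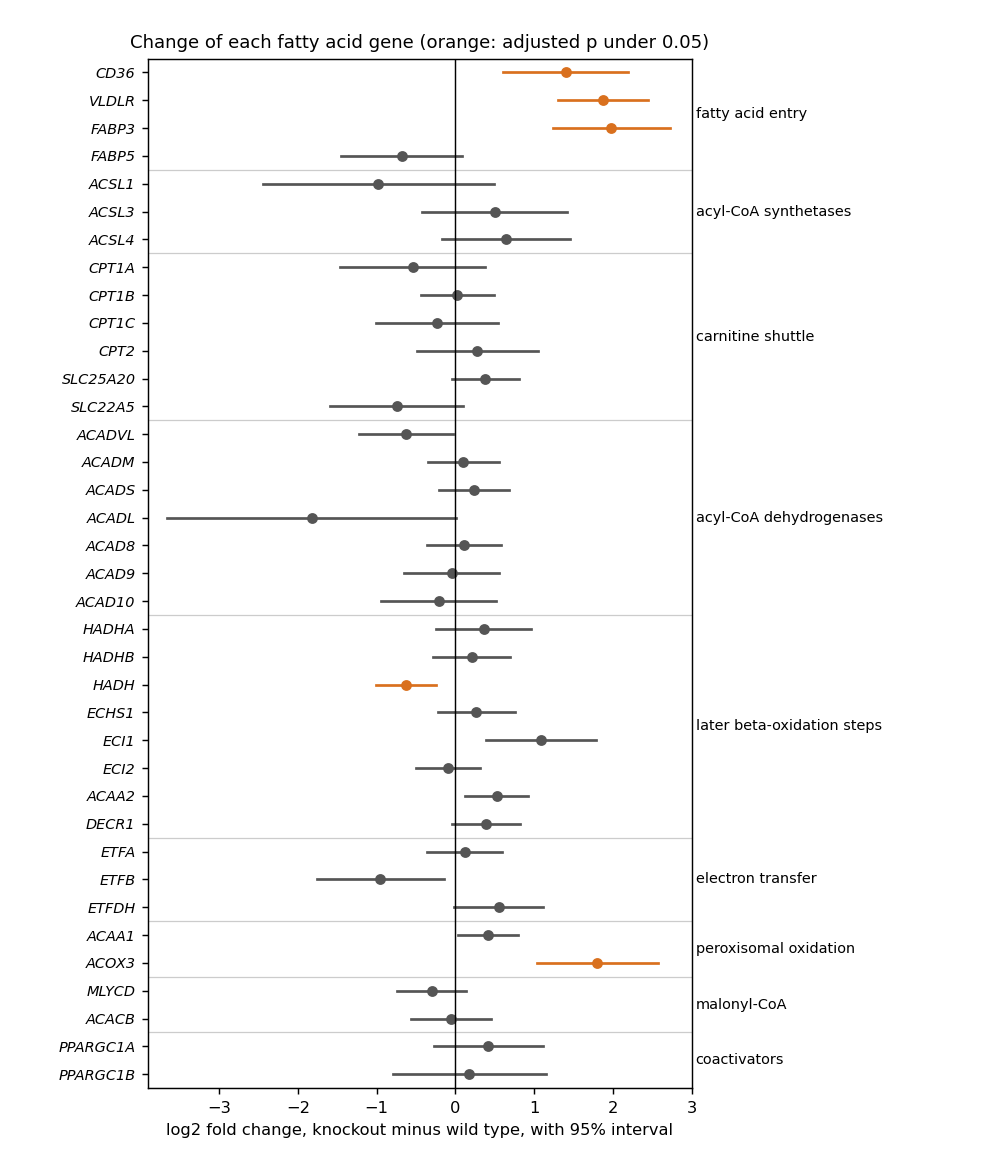
Fitted log2 fold change of the 37 tested genes (x axis, knockout minus wild type, on log2(normalized count + 1)) with 95% intervals from limma, grouped by role, orange where the adjusted p was under 0.05. The orange points are CD36, VLDLR and FABP3 among the entry genes, ACOX3 in the peroxisome and HADH, the 1 that lies to the left of 0.

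Of the 5 genes of fatty acid entry 4 were tested and 3 rose, beside 5.97% of all genes tested. No role was tested as a set. VLDLR and FABP3 rose 3.63-fold and 4.08-fold and CD36 2.57-fold, FABP5 did not pass, and LPL was hardly detected. VLDLR is a receptor of triglyceride-rich lipoproteins. FABP3 is the fatty acid binding protein of heart muscle, FABP5 a relative found in many cell types, and CD36 a membrane protein that eases uptake of long-chain fatty acids.

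VLDLR (ENSG00000147852.15, plus strand of chromosome 9, 2621834 to 2660053 in GENCODE 29 on GRCh38) had 1835, 1449 and 2369 normalized counts in the wild-type libraries, in the order of their replicate numbers. The knockout libraries, in the same order, had 5623, 8282 and 6635. Every knockout library lay above every wild-type library, and the lowest knockout value exceeded the highest wild-type value by more than the range within the wild type. The means were 1884 ± 462 and 6847 ± 1342 (SD, n = 3 each), and the log2 fold change was 1.87 (SE 0.25, limma adjusted p = 0.00314). Over the 16 alternatives its log2 fold change ran from 1.59 to 2.05 and its adjusted p was at most 0.0247. An antisense gene, VLDLR-AS1, shares exon sequence with it, and without stated use of strand their reads cannot be told apart.

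FABP3 (ENSG00000121769.7, minus strand of chromosome 1, 31365625 to 31376850) had 12444, 17286 and 11240 normalized counts in the wild-type libraries, in the same order. The knockout libraries had 81452, 38921 and 46978. The genotypes did not overlap, and the highest value of each genotype came from the library that stood apart, wild-type replicate 2 and knockout replicate 1. The means were 13657 ± 3200 and 55783 ± 22592 (SD, n = 3 each), and the log2 fold change was 1.98 (SE 0.32, limma adjusted p = 0.00751). Over the alternatives the log2 fold change ran from 1.67 to 2.20 and the adjusted p reached at most 0.0476. FABP3 alone took at most 0.0442% of all normalized counts in a wild-type library and at least 0.09996% in a knockout library.

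The upstream sequences of these 2 genes are shown because they are the members called under every alternative. Each run is the 250 bases before the start in RefSeq's promoter table (GRCh38.p14), read 5′ to 3′ on the gene's strand. Capitals mark a GC box, GGGCGG or its reverse complement. The RefSeq start used for VLDLR lies upstream of the GENCODE one. That used for FABP3 lies inside the GENCODE extent of the gene and matches a GENCODE transcript start. The VLDLR run is chr9:2621537-2621786 (plus strand) and the FABP3 run is chr1:31373077-31373326 (minus strand).
VLDLR: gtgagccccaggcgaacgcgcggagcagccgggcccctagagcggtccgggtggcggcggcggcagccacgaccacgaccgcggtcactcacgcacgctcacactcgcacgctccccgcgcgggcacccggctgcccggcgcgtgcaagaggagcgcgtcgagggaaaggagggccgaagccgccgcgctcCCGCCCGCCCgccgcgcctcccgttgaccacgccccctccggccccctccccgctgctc
FABP3: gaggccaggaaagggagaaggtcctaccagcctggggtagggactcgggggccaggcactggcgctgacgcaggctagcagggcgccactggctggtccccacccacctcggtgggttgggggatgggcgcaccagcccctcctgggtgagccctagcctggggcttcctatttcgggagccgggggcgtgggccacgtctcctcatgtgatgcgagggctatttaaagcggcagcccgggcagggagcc
The VLDLR run holds overlapping GC boxes and is 78.8% G and C. The FABP3 run, at 69.2% G and C, holds none of the motifs searched.

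CD36 (ENSG00000135218.18, plus strand of chromosome 7, 80369575 to 80679277) was a low gene, with 69.5, 71.6 and 123 normalized counts in wild-type replicates 1, 2 and 3. The knockout libraries had 230, 200 and 251. The 3 knockout libraries were close to each other and all above the wild type. The means were 88.1 ± 30.4 and 227 ± 25.7 (SD, n = 3 each), with a log2 fold change of 1.40, an SE of 0.34 and a limma adjusted p of 0.0354. CD36 passed in 8 of the 16 alternatives. Among the 6 leave-one-out fits it passed only without wild-type replicate 3, and the limma adjusted p went up to 0.142 without wild-type replicate 1. With every library scaled to the same total it was 0.0858, and with the replicate number as a block 0.104.

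CD36 is also known from endothelial cells, macrophages and adipocytes, whose markers were therefore read beside it. Of 10 endothelial markers 5 were tested, of which 1 rose (ESAM) and 0 fell (20% called, beside 12.8% of all genes). A log2 fold change above 0 was found for 4 of the 5, with a median of 1.44. The summed level of all 10 was 187 to 497 normalized counts in the wild type and 1198 to 1307 in the knockout. Among the 10, CDH5, TIE1 and ERG had at most 3 reads in every library. Of 7 macrophage markers 0 passed, and their sum was 412 to 1518 in the wild type and 884 to 1511 in the knockout. Of 7 adipocyte markers 1 was high enough to test and 0 passed. Their sum was 99.7 to 216 against 177 to 233, with FABP4 at most 3 reads everywhere. The part of these cell types in the CD36 result was not tested.

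FABP5 had 6043, 9697 and 5576 normalized counts in the wild type and 6494, 3051 and 4013 in the knockout. The genotypes overlapped through knockout replicate 1, and the log2 fold change of -0.68 (SE 0.33, limma adjusted p = 0.234) did not pass. The processed pseudogene FABP5P7 was listed with 816 ± 202 and 620 ± 201 normalized counts (SD, n = 3 each), so reads of FABP5 could have been split with it and its value is uncertain. LPL, the lipase that frees fatty acids from lipoproteins, had at most 2 reads in any library. No fold is given for it, since both genotypes were under the floor of 3 reads.

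**Figure D2:**
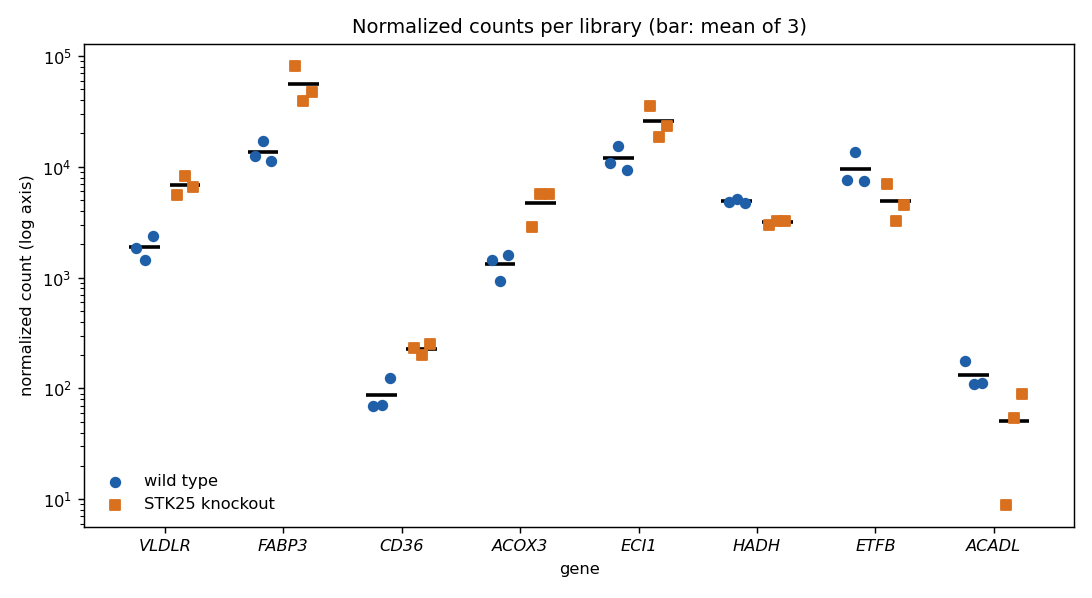
Normalized counts (y axis, log scale) of 8 genes in each of the 3 wild-type libraries (circles) and 3 knockout libraries (squares), with a bar at each mean. VLDLR, FABP3, CD36, ACOX3 and ECI1 sit higher in every knockout library and HADH, ETFB and ACADL lower, with the 8.90 normalized counts of ACADL in knockout replicate 1 far below its other values.

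The balance of the 2 binding proteins was steadier than either gene. Per kilobase of exon, FABP3 exceeded FABP5 by 2.89, 2.50 and 2.83 times in wild-type replicates 1, 2 and 3 and by 17.6, 17.9 and 16.4 times in the knockout libraries. The genotypes were far apart, although FABP3 itself ranged from 38921 to 81452 normalized counts among the knockout libraries. On the log2 scale the ratio differed between genotypes by 2.66, beside a spread within genotypes of 0.092 (pooled SD), and by 2.58 to 2.70 under the alternatives tried. It is given as a description without a test.

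**Figure D3:**
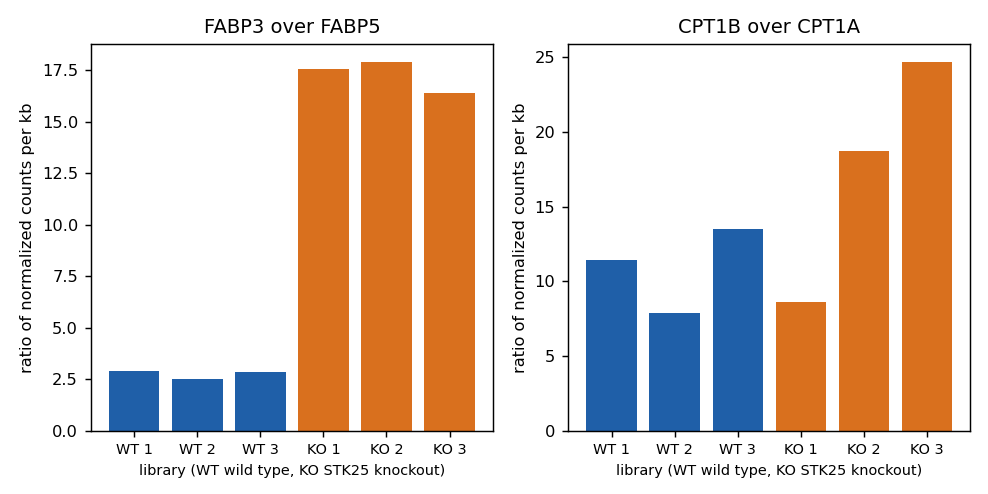
Ratio of normalized counts per kilobase of exon for FABP3 over FABP5 (left) and CPT1B over CPT1A (right) in each library, wild type in blue and knockout in orange. The left ratio is between 2.50 and 2.89 in the wild type and between 16.4 and 17.9 in the knockout, while the right ratios of the genotypes overlap.

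The acyl-CoA synthetases, which couple fatty acids to coenzyme A, did not pass: 0 of the 3 tested were called. ACSL1, the main isoform of adult heart, had 2951, 1009 and 3524 normalized counts in the wild type and 458, 1726 and 1744 in the knockout. Wild-type replicate 2 and knockout replicate 1 were the low ones, and the log2 fold change of -0.98 had an SE of 0.63 (limma adjusted p = 0.374). Without knockout replicate 1 it was -0.34, and without both libraries -0.89 with a limma adjusted p of 0.00277. ACSL3 and ACSL4, which act more in lipid synthesis and membrane remodelling, had log2 fold changes of 0.50 (SE 0.40) and 0.64 (SE 0.35). ACSL5 and ACSL6 had at most 21 reads in any library and were not tested.

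Per kilobase, the synthetase levels in the wild type were 550 for ACSL3, 468 for ACSL1 and 144 for ACSL4. In the knockout they were 798, 246 and 212 in the same order. ACSL3 led in both genotypes on the mean, but its lead over ACSL1 in the wild type was smaller than the spread between libraries.

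The carnitine shuttle showed no called gene among its 6. CPT1 makes acylcarnitine at the outer mitochondrial membrane and is the step that malonyl-CoA inhibits. CPT1B is the muscle isoform, CPT1A the isoform of liver and fetal heart, and CPT1C a brain isoform of the endoplasmic reticulum. CPT1B had 1420, 1137 and 1556 normalized counts in the wild type and 1350, 1309 and 1497 in the knockout, with a log2 fold change of 0.02 and a 95% interval from -0.44 to 0.49. Its exons are shared with the read-through gene CHKB-CPT1B, listed with 415 ± 119 and 399 ± 143 normalized counts (SD, n = 3 each), so the split between them is uncertain.

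CPT1A had 249, 290 and 231 normalized counts in the wild type and 314, 140 and 122 in the knockout. Knockout replicate 1 lay above every wild-type library and the other knockout libraries below all of them. A log2 fold change of -0.54 was fitted (SE 0.40, limma adjusted p = 0.433), and -0.96 without knockout replicate 1 (limma adjusted p = 0.0696). CPT1C had 1311, 703 and 1406 against 679, 1025 and 1158, a log2 fold change of -0.23 (SE 0.33). Per kilobase, CPT1B stood at 438, CPT1C at 365 and CPT1A at 40.9 in the wild type, and at 442, 305 and 30.6 in the knockout. The ratio of CPT1B to CPT1A per kilobase was 11.4, 7.86 and 13.5 in the wild type and 8.62, 18.7 and 24.6 in the knockout, so the genotypes overlapped. Its log2 difference was 0.57, and 1.00 without knockout replicate 1.

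The other shuttle genes overlapped between genotypes, save SLC25A20. CPT2, which rebuilds acyl-CoA inside mitochondria, had 2979, 1635 and 2865 normalized counts in the wild type and 1944, 3574 and 3591 in the knockout, a log2 fold change of 0.28 (SE 0.33). SLC25A20, the carnitine-acylcarnitine carrier of the inner membrane, had a log2 fold change of 0.38 (SE 0.18, limma adjusted p = 0.224), with every knockout library above every wild-type library. SLC22A5, the carnitine importer of the plasma membrane, had -0.74 (SE 0.36, limma adjusted p = 0.235).

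**Figure D4:**
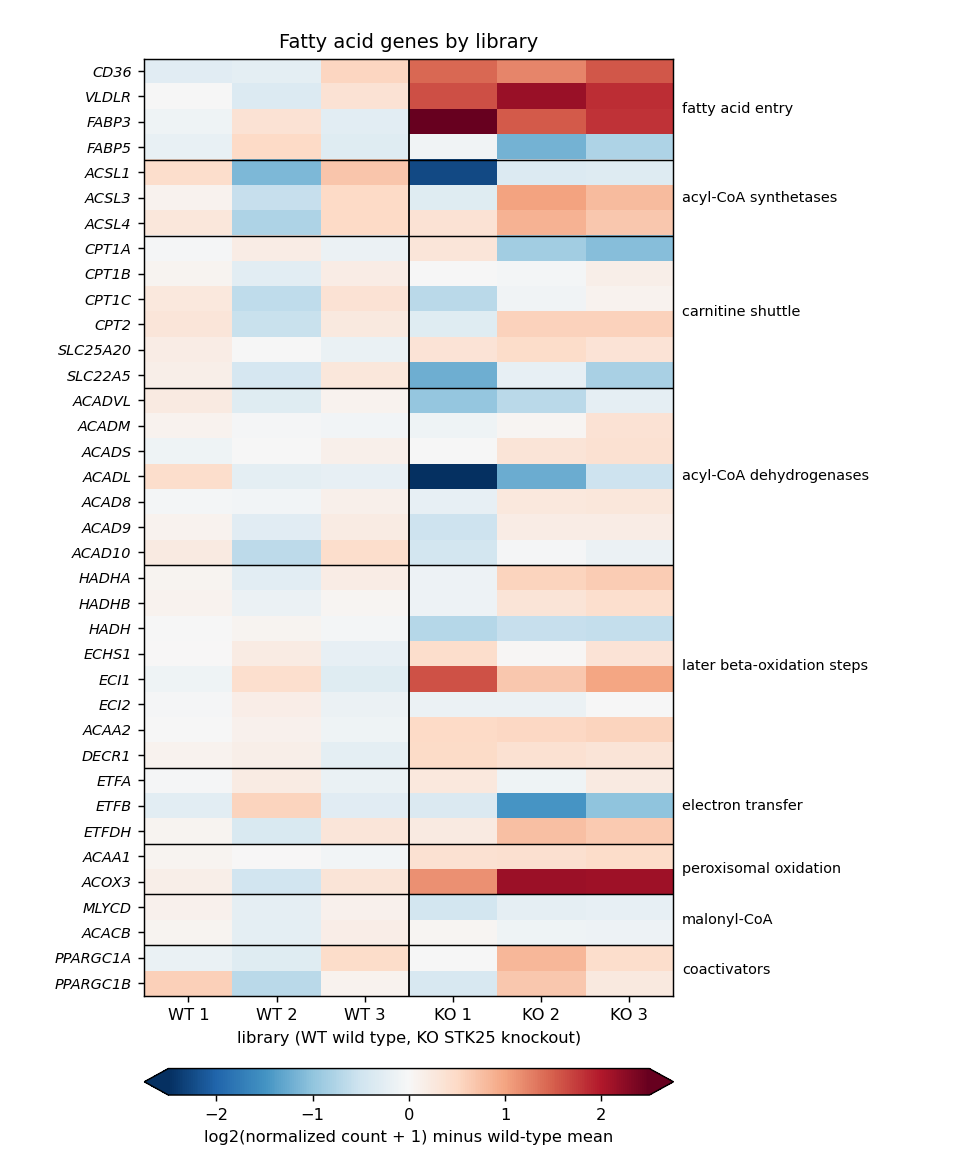
Each tested gene (rows, by role) in each library (columns): log2(normalized count + 1) minus the wild-type mean, red above and blue below. VLDLR, FABP3, CD36 and ACOX3 are red in all 3 knockout libraries and HADH blue in all 3, while ACSL1 is at its deepest blue in wild-type replicate 2 and knockout replicate 1.

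None of the 7 acyl-CoA dehydrogenases, which start each round of oxidation, was called. ACADVL acts on very long chains and was the most abundant of them per kilobase. It had 22768, 15788 and 20859 normalized counts in the wild type and 9980, 12289 and 16790 in the knockout. The highest knockout library exceeded the lowest wild-type library, and the log2 fold change of -0.62 (SE 0.26) had an unadjusted p of 0.0431 and a limma adjusted p of 0.165. Exons of DLG4 lie opposite those of ACADVL. ACADM, the medium-chain enzyme, had 6282, 5793 and 5571 against 5437, 6054 and 7584, a log2 fold change of 0.10 with a 95% interval from -0.35 to 0.55.

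ACADL, the long-chain enzyme, was low, with 177, 110 and 112 normalized counts in the wild type and 8.90, 54.6 and 89.8 in the knockout. The genotypes did not overlap, but knockout replicate 1 rested on 7 reads and set much of the difference. The log2 fold change was -1.83 (SE 0.79, limma adjusted p = 0.182), and -0.88 without knockout replicate 1. The remaining dehydrogenases lay closer to 0. ACADS (short chains) had a log2 fold change of 0.24, ACAD8 (isobutyryl-CoA from valine) 0.11, ACAD9 (also a complex I assembly factor) -0.05 and ACAD10 -0.21, with SEs from 0.19 to 0.31.

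Among the 8 genes of the later mitochondrial steps 1 fell and 0 rose (12.5% called, beside 12.8% of all genes). HADH, which oxidises short-chain 3-hydroxyacyl-CoA, was the least variable of the called genes. HADH (ENSG00000138796.16, plus strand of chromosome 4, 107989714 to 108035175) had 4856, 5114 and 4723 normalized counts in the wild type and 3006, 3265 and 3223 in the knockout. All 3 knockout libraries lay below all 3 wild-type libraries, with coefficients of variation of 4.06% and 4.39%. The knockout mean was 64.6% of the wild-type mean, and the log2 fold change was -0.63 (SE 0.16, limma adjusted p = 0.0441). HADH passed in 8 of the 16 alternatives and in 0 of the 6 leave-one-out fits, where the limma adjusted p was 0.0582 to 0.170. With the replicate number as a block it was 0.241. Over all alternatives the log2 fold change itself ran from -0.91 to -0.56.

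HADHA and HADHB, the subunits of the trifunctional protein that carries out the last steps on long chains, start head to head on chromosome 2. HADHA had 12772, 10107 and 13890 normalized counts in the wild type and 11162, 17942 and 18986 in the knockout, a log2 fold change of 0.36 (SE 0.26). HADHB had 13195, 11254 and 12889 against 11369, 15511 and 16670, a log2 fold change of 0.21 (SE 0.21). Neither passed (limma adjusted p = 0.426 and 0.593). The subunits stayed close in level: the ratio of HADHA to HADHB normalized counts stayed between 0.898 and 1.16 over the 6 libraries, and both were lowest in wild-type replicate 2 and knockout replicate 1 within their genotypes.

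The starts of HADHA and HADHB lie 306 bases apart in the same table, and the windows of 250 bases before each start share 194 bases. The HADHB window is printed because its letters serve as upstream sequence of both subunits, and that of HADH because it is the member that fell. They are chr2:26244689-26244938 and chr4:107989639-107989888, both on the plus strand of GRCh38.p14, and capitals mark GC boxes and, in HADH, a CCAAT box.
HADHB: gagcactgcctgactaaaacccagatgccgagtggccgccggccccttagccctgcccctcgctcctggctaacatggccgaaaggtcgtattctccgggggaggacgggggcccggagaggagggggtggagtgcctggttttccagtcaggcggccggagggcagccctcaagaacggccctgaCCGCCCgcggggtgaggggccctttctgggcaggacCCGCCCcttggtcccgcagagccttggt
HADH: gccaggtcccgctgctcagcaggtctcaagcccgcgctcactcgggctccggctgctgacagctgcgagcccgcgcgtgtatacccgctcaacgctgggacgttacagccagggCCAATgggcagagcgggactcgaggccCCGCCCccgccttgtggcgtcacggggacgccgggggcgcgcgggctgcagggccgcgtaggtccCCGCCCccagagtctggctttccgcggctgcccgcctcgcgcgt

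Motifs were searched in both strands of these windows for the 34 of the 40 genes that had an entry in the table. The GC box GGGCGG was in a window of 26 of the 34 genes (76.5%), against 42.5% of all 34943 windows, although several members have more than 1 annotated start and so more than 1 chance. CCAAT was found for 11 of the 34 (32.4%), against 32.0% of all windows. The repeat AGGTCANAGGTCA, which PPAR and RXR bind, and the ERR site TCAAGGTCA were found for 0 of the 34, against 0.0172% and 0.321% of all windows. The half-site AGGTCA, contained in both, was found for 3 genes (ACAD10, ACSL5 and ACSL6), against 12.1% of all windows. The TATA box TATAAA was found for 2 genes (ACADVL and CD36), against 10.8% of all windows. The GATA site AGATAA was found for 5 genes, against 9.19%. The E-box CACGTG was found for ACAD9 and PPARGC1A, against 6.32%. These are matches of letters in a short window only.

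The enoyl-CoA isomerases differed from each other. ECI1, which handles double bonds of unsaturated fatty acids in mitochondria, had 10874, 15572 and 9447 normalized counts in the wild type and 35280, 18689 and 23313 in the knockout. The genotypes did not overlap, but the log2 fold change of 1.09 (SE 0.30) had a limma adjusted p of 0.0534, just over the threshold. It passed with DESeq2 (adjusted p = 0.00786), with a pseudocount of 10, without wild-type replicate 2, and without that library and knockout replicate 1. ECI2, found in mitochondria and peroxisomes, had a log2 fold change of -0.09 with a 95% interval from -0.51 to 0.32. DECR1, which prepares polyunsaturated chains, had 0.39 (SE 0.19, limma adjusted p = 0.221) with no overlap between genotypes.

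The remaining genes of the spiral did not pass. ACAA2, the mitochondrial thiolase, had 8789, 9547 and 8161 normalized counts in the wild type and 12490, 12601 and 12934 in the knockout. Its 3 knockout libraries agreed within a coefficient of variation of 1.82% and lay above the wild type. Its fitted log2 fold change was 0.52 (SE 0.17, limma adjusted p = 0.0888), and DESeq2 put it past the threshold (adjusted p = 0.0139). A protein-coding gene on the same strand, AC090227.1, shares exon sequence with ACAA2, so its value is uncertain. The hydratase ECHS1 had 0.27 (SE 0.21), with overlapping genotypes.

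Electrons from the dehydrogenases pass to the flavoprotein made of ETFA and ETFB and on to ETFDH. The partners ETFA and ETFB had unlike values. ETFA had 14262, 16849 and 12942 normalized counts in the wild type and 17460, 13474 and 17014 in the knockout, a log2 fold change of 0.12 with a 95% interval from -0.35 to 0.60. ETFB had 7563, 13482 and 7450 against 7055, 3261 and 4556, with no overlap but with the lowest wild-type and highest knockout libraries close together. Its log2 fold change of -0.95 (SE 0.35, limma adjusted p = 0.119) did not pass. With equal library totals it was -1.23 (limma adjusted p = 0.0274), and without knockout replicate 1 -1.24 (limma adjusted p = 0.0405). ETFDH had 0.55 (SE 0.25, limma adjusted p = 0.198). An antisense gene and another protein-coding gene share exon sequence with ETFB, so its value is uncertain.

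Peroxisomal members were higher in the knockout in every library, and 1 of the 2 passed, beside 12.8% of all genes tested. ACOX3 (ENSG00000087008.15, minus strand of chromosome 4, 8366282 to 8440723) encodes an oxidase of branched-chain acyl-CoA. It had 1444, 935 and 1615 normalized counts in the wild type and 2880, 5717 and 5651 in the knockout. Knockout replicate 1 was the lowest of its genotype and still above every wild-type library. The means were 1331 ± 354 and 4749 ± 1619 (SD, n = 3 each), 3.57-fold apart, with a log2 fold change of 1.80 (SE 0.33, limma adjusted p = 0.0128). ACOX3 passed in 13 of the 16 alternatives. With equal library totals its limma adjusted p was 0.0574. Leaving out wild-type replicate 1 gave 0.0509, and leaving out knockout replicate 3 gave 0.0601.

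ACAA1, the peroxisomal thiolase, had 6220, 5943 and 5625 normalized counts in the wild type and 7684, 7831 and 8170 in the knockout. The groups were tight and did not overlap, but the log2 fold change was small at 0.41 (SE 0.16, limma adjusted p = 0.150). ACAA1 passed in 2 of the 16 alternatives, with DESeq2 and without wild-type replicate 2 and knockout replicate 1. The peroxisomal genes outside the 40 gave another picture, described with the wider pathway.

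The genes that set malonyl-CoA, the inhibitor of CPT1, did not pass. ACACB, which makes it near the mitochondrial surface, had a log2 fold change of -0.06 with a 95% interval from -0.56 to 0.45. MLYCD, which breaks it down, had -0.30 with an interval from -0.73 to 0.14. The coactivators also overlapped between genotypes. PPARGC1A had 1162, 1059 and 1805 normalized counts in the wild type and 1289, 2318 and 1778 in the knockout, a log2 fold change of 0.42 (SE 0.30, limma adjusted p = 0.417). PPARGC1B had 366, 152 and 256 against 183, 389 and 287, a log2 fold change of 0.18 (SE 0.42), which turned to -0.11 with equal totals.

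Levels per kilobase of exon spread widely among the 40 genes. FABP3 was first in both genotypes, at 14748 ± 3456 in the wild type and 60241 ± 24397 in the knockout (SD, n = 3 each). ECHS1 followed in the wild type at 9134 ± 1337, then ACADVL at 7568 ± 1379. In the knockout ECI1 came next after FABP3 at 11490 ± 3819, ahead of ECHS1 at 10995 ± 1540 by less than their spread. ACADVL went from rank 3 to rank 7 and FABP5 from rank 5 to rank 11. LPL, ACSL6 and ACSL5 were the lowest in both. All 40 together took 0.508% to 0.574% of the normalized counts of a wild-type library and 0.566% to 0.644% of a knockout library. Without FABP3 the shares were 0.464% to 0.537% and 0.403% to 0.531%.

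Much of the spread within each genotype was shared between these genes. Wild-type replicate 2 and knockout replicate 1 were both the lowest libraries of their genotype for 19 of the 37 tested genes (51.4%), beside 30.8% of all genes tested. They were both the highest for 8 (21.6%), beside 29.7%. The low ones included ACSL1, ACSL3, CPT2, HADHA, VLDLR and ACOX3, and the high ones FABP3, FABP5, ECI1, ETFB and CPT1A. Over the 37 genes the deviations of the 2 libraries from the others of their genotype had a Spearman rho of 0.81. Their rho with exon length was -0.60 in wild-type replicate 2 and -0.31 in knockout replicate 1. The longer of the 37 genes thus tended to be lower, more weakly in knockout replicate 1. This rho was taken over the 37 genes only. The genes share the libraries' depth and handling, and the part of RNA quality or library preparation was not tested. The log2 fold change between genotypes had a rho of -0.01 with exon length.

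**Figure D5:**
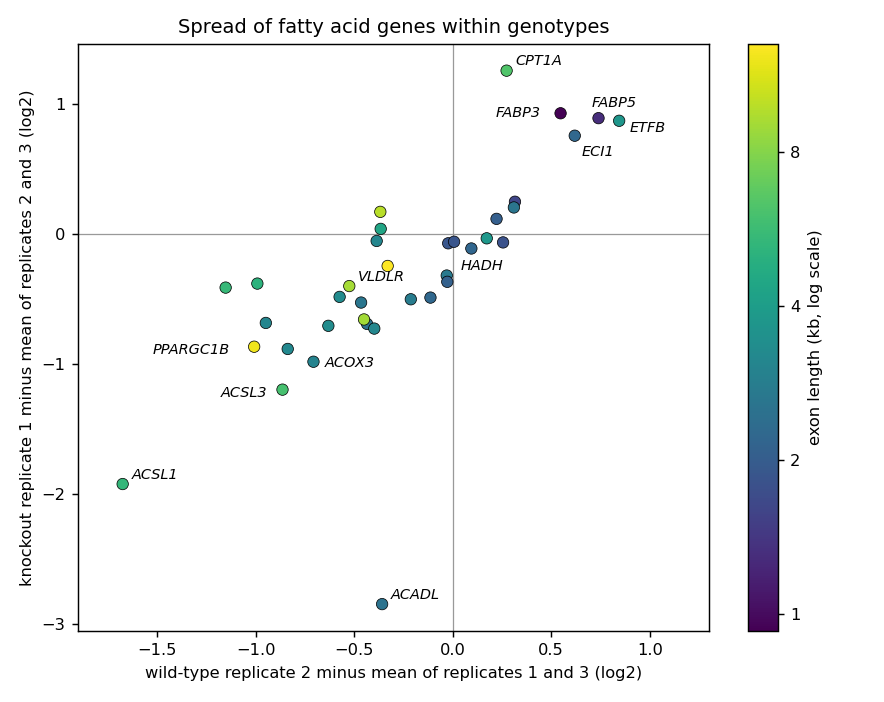
Deviation of wild-type replicate 2 (x axis) and of knockout replicate 1 (y axis) from the mean of the other libraries of the same genotype, in log2 units, for the 37 tested genes, coloured by exon length in kb. FABP3, FABP5, ECI1 and ETFB lie high in both and ACSL1 and ACSL3 low in both, and ACADL is low mainly in knockout replicate 1.

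The wider pathway was read from 5 lists outside the 40 genes. Of 28 regulators, all tested, 3 rose and 2 fell, or 17.9% called beside 12.8% of all genes. PPARG, better known from fat cells, had 19.6, 1.5 and 1.3 normalized counts in the wild type and 123, 106 and 104 in the knockout, a log2 fold change of 4.51 (SE 0.88, limma adjusted p = 0.0158). PPARG stayed a low gene, and wild-type replicates 2 and 3 held 2 reads each. NCOA1, a nuclear receptor coactivator, rose by 1.11 on the log2 scale and PRKAB2, a subunit of the energy sensor AMPK, by 1.27 (limma adjusted p = 0.0423 and 0.0387), each in 9 of the 16 alternatives. The receptor RXRG fell by 1.61 on the log2 scale and PRKAG2, another AMPK subunit, by 1.95 (limma adjusted p = 0.00332 and 0.00228), both in all 16 alternatives.

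PPARA, the main PPAR of heart, had 400, 558 and 343 normalized counts in the wild type and 1522, 687 and 592 in the knockout. The genotypes did not overlap, and the log2 fold change of 1.00 (SE 0.39, limma adjusted p = 0.142) did not pass, with 0.58 when knockout replicate 1 was left out. PPARD had 0.04 (SE 0.44) and ESRRA 0.49 (SE 0.20, limma adjusted p = 0.170). Of 12 genes known to be induced by PPAR, 9 were tested, 0 rose and 1 fell (11.1% called, beside 12.8% of all genes). That gene was TXNIP, which fell by 1.55 on the log2 scale (limma adjusted p = 0.0160). PDK4, which spares glucose when fat is burned, had 0.80 (SE 0.95) at a mean of 23.0 and 39.3 normalized counts.

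Other transport, binding and activation genes went the opposite way to VLDLR, FABP3 and CD36 where they passed: of 30 listed, 23 were tested, 0 rose and 6 fell (26.1% called, beside 12.8% of all genes). The log2 fold change was above 0 for 8 of the 23, with a median of -0.33. The summed level of all 30 was nonetheless higher, at 42162 to 45576 normalized counts in the wild type and 50144 to 58576 in the knockout. SLC27A6, a fatty acid transport protein of heart, had 2535, 1101 and 2398 normalized counts in the wild type and 1.27, 62.4 and 39.99 in the knockout, a log2 fold change of -6.71 (SE 1.15, limma adjusted p = 0.00945). Knockout replicate 1 was under the floor of 3 reads for SLC27A6, so the size of its change is uncertain. FABP2, the intestinal binding protein, had 257, 286 and 232 against 52.1, 33.4 and 16.9, a log2 fold change of -3.01 (SE 0.46, limma adjusted p = 0.00568). ACSF2, a medium-chain synthetase, had -1.94 (limma adjusted p = 0.00727). These 3 passed in all 16 alternatives. CAV1 (-1.37), the lipoprotein receptor LRP1 (-1.28) and the short-chain synthetase ACSS3 (-1.11) passed in 14, 11 and 9 of them, with limma adjusted p-values of 0.0128, 0.0359 and 0.0338.

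Of 25 other genes of mitochondrial acyl-CoA oxidation 1 rose and 2 fell (12.0% called, beside 12.8% of all genes), all from the family of enoyl-CoA hydratase domain proteins. ECHDC1, which removes a faulty carboxylation product, rose by 0.93 on the log2 scale (limma adjusted p = 0.0139). ECHDC2 fell by 1.91 (limma adjusted p = 0.00389). ECHDC3 had 399, 443 and 425 normalized counts in the wild type and 2.54, 17.8 and 7.11 in the knockout, a log2 fold change of -5.70 (SE 0.61, limma adjusted p = 0.00142). Knockout replicate 1 was under the floor of 3 reads for ECHDC3, so the size of its change is uncertain.

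Of 20 peroxisomal genes outside the 40, 0 rose and 2 fell (10% called, beside 12.8% of all genes). CAT, the catalase that clears hydrogen peroxide made by the oxidases, had 2284, 2066 and 2023 normalized counts in the wild type and 16.5, 7.80 and 10.7 in the knockout. Every knockout library was under 1% of the wild-type mean, and the log2 fold change was -7.45 (SE 0.34, limma adjusted p = 5.66e-05). ACOX2, an oxidase of branched chains and bile acid precursors and a relative of ACOX3, had 340, 499 and 409 against 5.08, 12.3 and 0, a log2 fold change of -6.57 (SE 0.89, limma adjusted p = 0.00348). Both passed in all 16 alternatives. Knockout replicate 3 was under the floor of 3 reads for ACOX2, so the size of its change is uncertain. Over the 5 lists together 17 of 105 tested genes passed, 4 higher and 13 lower, or 16.2% beside 12.8% of all genes.

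Markers of other cell types that cardiomyocyte cultures can hold were also read, beside 12.8% called of all genes tested. Of 8 smooth muscle markers, all tested, 5 rose and 0 fell (62.5% called). Their summed level was 91947 to 100763 normalized counts in the wild type and 503657 to 552478 in the knockout. Of 10 fibroblast and stromal markers 3 rose (COL3A1, DCN and TCF21) and 1 fell (COL1A2), or 40% called. Their sums overlapped, at 14035 to 30341 in the wild type and 12030 to 23015 in the knockout. Of 7 neural markers 6 were tested and 3 rose (50%), with sums of 69.5 to 127 in the wild type and 479 to 829 in the knockout. Of 7 epicardial ones 6 were tested, 1 rose (ALDH1A2) and 1 fell (KRT19), or 33.3% called. The log2 fold change was above 0 for 4 of those 6, with a median of 0.69. The sums of all 7 were nonetheless lower, at 11479 to 15342 in the wild type and 5281 to 5617 in the knockout. Of 10 endoderm and liver ones 5 were tested and 1 fell (AFP, 20%), with sums of 1811 to 3242 and 1335 to 1410. Of 7 pluripotent ones 6 were tested and 1 rose (TDGF1, 16.7%). Only 3 of those 6 had a log2 fold change above 0, and the median was -0.57. The sums of all 7 were nonetheless higher, at 972 to 1542 in the wild type and 2819 to 4387 in the knockout. The cardiomyocyte markers summed to 2387070 to 2948160 in the wild type and 3531070 to 5648450 in the knockout. The part of these cells in the changes of VLDLR, FABP3, CD36, ACOX3 and HADH was not tested.

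Lists of the 2 other main energy routes stood beside the fatty acid genes as follows. Of 36 genes of glycolysis and pyruvate entry 4 rose and 0 fell (11.1% called, beside 12.8% of all genes), with a median log2 fold change of 0.43. Of 48 nuclear-encoded respiratory chain genes 1 rose and 1 fell (4.17% called, below that share), with a median of 0.60. The fatty acid genes, with 13.5% called, had the lowest median of the 3 lists, 0.18. Differences between the lists were not tested.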

How the data were processed

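The deposited table holds 1 signal value per gene symbol and library, which the authors named normalized counts, for 6 libraries of 2 genotypes. Per the submitters' processing notes, bcl2fastq 2.19, kallisto 0.44.0, DESeq2 1.28.1 and GRCh38 were used, with no role stated; annotation and use of strand are not given in the sources used here. Per the labels' protocols, RNA was column-purified with DNase, reverse-transcribed with Clontech Ultra Low v4 reagents and made into libraries with NexteraXT. All values (100%, within 0.01 reads) were whole multiples of 1 step per library, which gave back whole reads. The floor of 3 reads covers counting error only, since no molecular identifiers are mentioned; the 95% intervals are limma's and rest on the spread between libraries.

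Tests used limma 3.58.1 in R 4.3.3 (lmFit, eBayes with trend, two-sided) on log2(value + 1), over genes whose mean reached 10, with Benjamini-Hochberg adjustment over all genes tested. Fold changes on that scale understate changes of low genes. Alternatives used the recovered reads with edgeR 4.0.16 or DESeq2 1.42.0, or other pseudocounts, filters and scalings, the replicate number as a block and leaving out libraries. Leaving out wild-type replicate 2 and knockout replicate 1 together was chosen after seeing the data. Fits were also run on simulated counts, drawn independently for each gene and library with the same variance setting for all genes. The deviations shared between genes in the real libraries were not simulated, so that run does not cover them. Levels per kilobase use the joined exons of protein-coding transcripts in GENCODE 29, which do not show which transcript was expressed. Of the 40 genes 17 share exon sequence with another gene, and not all of them are named above.

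The 40 genes and all lists were chosen with earlier results of these data known. Values per library are given for called genes, for genes with no overlap and an absolute log2 fold change of at least 0.5, and for a fixed set of 14 central genes; other lists show at most the 6 called genes with the largest change and 6 fixed genes, of which 1 is not reported here. FABP5P7 and CHKB-CPT1B were named after their values were seen. Figures used Python 3.11.15 and matplotlib 3.10.9.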

Additional observations from a re-analysis of the deposited data

How the results depend on the processing

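STK25 kept its direction in all 16 alternatives, and its adjusted p passed the threshold except with the replicate block (log2 fold change -1.12, adjusted p = 0.0684) and without wild-type replicate 1; leaving out 1 library gave -1.24 to -1.05, and leaving out wild-type replicate 2 and knockout replicate 1 gave -1.28. Over all genes 1982 passed, against 798 with the replicate block, 3210 with DESeq2, 4483 without wild-type replicate 2 and knockout replicate 1, and 796 to 2181 when 1 library was left out. Of the fatty acid genes 5 passed, against 3 with no filter on low values, 3 with the replicate block, 8 with DESeq2, 15 without wild-type replicate 2 and knockout replicate 1, and 2 to 4 when 1 library was left out (2 without wild-type replicate 1 or knockout replicate 3). Only FABP3 and VLDLR were called in all 16. Their median of 0.18 became -0.11 with equal totals, where the median of all genes moved from 0.0052 to -0.27, and was 0.090 to 0.27 in the leave-one-out fits. With equal totals 549 genes were higher and 1456 lower, in place of 927 and 1055.

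The same replicate number did not pair the libraries: deviations from the group means correlated at -0.23, -0.40 and 0.17 for numbers 1, 2 and 3, and wild-type replicate 2 correlated best with knockout replicate 1 (0.45). No called gene changed sign. The following uncalled genes did. With equal totals the log2 fold changes were CPT1B -0.26, CPT2 -0.0022, ACADM -0.18, ACADS -0.044, ACAD8 -0.17, HADHB -0.075, ECHS1 -0.014, ETFA -0.16, PPARGC1B -0.11 and PPARD -0.24. With equal upper quartiles CPT1B was -0.023 and PPARD -0.0082. Leaving out 1 library, CPT1B ran from -0.10 to 0.12, ACADM from -0.034 to 0.21, ACAD9 from -0.19 to 0.18, ACAD10 from -0.54 to 0.0072, ACACB from -0.18 to 0.028, PPARGC1B from -0.16 to 0.47 and PPARD from -0.37 to 0.35. Without wild-type replicate 2 and knockout replicate 1, CPT1B was -0.087, ACAD9 0.037, ECI2 0.011 and PPARD -0.059. The cause of these moves was not tested. Depth limits LPL, ACSL5 and ACSL6, which were too low to compare.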

Other observations

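Of the 36 genes of glycolysis and pyruvate entry 4 rose (11.1%, beside 12.8% of all genes tested). SLC16A3, an exporter of lactate, had 214, 229 and 250 normalized counts in the wild type and 1175, 857 and 1303 in the knockout, a log2 fold change of 2.24 (SE 0.24, limma adjusted p = 0.00152). PFKFB2, which sets the activator of phosphofructokinase in heart, had 171, 169 and 392 against 881, 1378 and 1466, a log2 fold change of 2.43 (SE 0.39, limma adjusted p = 0.00713). Both passed in all 16 alternatives. MPC1, a subunit of the mitochondrial pyruvate carrier, rose 3.12-fold and PDHA1, a subunit of pyruvate dehydrogenase, 1.94-fold (limma adjusted p = 0.0161 and 0.0163), each in 12 of them.

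In the respiratory chain UQCRC2 of complex III rose 2.11-fold (limma adjusted p = 0.0114, passing in 11 of 16 alternatives). COX7A1, a muscle isoform of a complex IV subunit, had 36.3, 92.9 and 62.5 normalized counts in the wild type and 0 reads in each knockout library, so it was at least 19.5-fold lower against a floor of 3 reads per library.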
